A study of Mus musculus with 8 samples.

Results

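The calcitonin receptor-like receptor gene Calcrl was examined together with the genes of its partner proteins and of a ligand, in mouse MLL-AF9 progenitor cultures in which Cre was or was not switched on to delete Runx1 and Cbfb. The 6 genes were Calcrl, Ramp1, Ramp2, Ramp3, Crcp and Adm, of 19938 genes measured. They were chosen by gene symbol, each measured by the 1 probe set that carries that symbol alone, and Calcrl was picked with its rise in these data already known. For that reason their differences between the treated and the control cultures are given as a description, with no test. Tests are given for differences between the 2 clones and for other genes of the pathway.

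The cells were c-Kit-positive bone marrow cells from mice with floxed alleles of both Runx1 and Cbfb. They carried the leukaemia fusion MLL-AF9 and CreERT2, a Cre recombinase that 4-hydroxytamoxifen (4OHT) switches on, and were selected with puromycin. Cultures of the group labelled Runx1Cbfb-KO received 4OHT at 1 µM and those of the Control group received ethanol, both for 24 h in the cytokine-rich methylcellulose M3434. Each group held 4 cultures, from 2 clones with 2 biological replicates each, and a set below is the pair of cultures of 1 clone and replicate number. All groups share the floxed alleles, MLL-AF9 and CreERT2, and no culture had 4OHT without the floxed genes, so 4OHT and active Cre cannot be told apart from the deletion.

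Runx1 went against the label. Its level was 10.82 ± 0.28 in cultures labelled Runx1Cbfb-KO and 10.30 ± 0.30 in Control cultures (log2, SD, n = 4 each), and that of Cbfb was 9.75 ± 0.13 and 9.93 ± 0.08. Within the sets, the difference (Runx1Cbfb-KO minus Control) was 0.48 to 0.56 for Runx1 and -0.27 to -0.08 for Cbfb. A probe set that averages exons does not test the deletion where its probes lie outside the deleted part, so the treated cultures are called labelled-KO here and every direction follows the label. Of 13 myeloid markers, the granule genes Mpo, Elane, Prtn3 and Ctsg had the highest means, 12.46 to 13.31 in labelled-KO cultures and 12.60 to 13.33 in Control cultures. The lowest was Csf1r, at 6.44 and 6.27 in that order of groups. Cd34 was at 8.57 ± 3.27 and 8.59 ± 3.17 (SD, n = 4 each). Array medians lay between 6.26 and 6.39.

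Calcrl encodes a receptor with 7 membrane spans that does not reach the cell surface by itself. It needs a receptor activity-modifying protein (RAMP), a small membrane protein that also sets which peptide is bound. With RAMP1 it forms the receptor for calcitonin gene-related peptide (CGRP), and with RAMP2 or RAMP3 it forms adrenomedullin receptors. These receptors act mainly through the Gs protein, adenylyl cyclase and cAMP. In blood, the receptor is known from haematopoietic stem cells and from acute myeloid leukaemia, and in other tissues it is known best from vessels and nerves.

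The promoters of Calcrl and Ramp1 are shown because these were the genes whose levels differed most, the first between treatments and the second between clones. Each run is the 250 bases before the start annotated in RefSeq (GRCm38.p6), written 5′ to 3′ on the gene's strand, for Calcrl at chr2:84425267-84425516 on the minus strand and for Ramp1 at chr1:91179572-91179821 on the plus strand. Capitals mark TGTGG or TGCGG, the core of the RUNX binding motif, and AGGAAG or CGGAAG, words of the ETS family motif, each searched on both strands.
Calcrl: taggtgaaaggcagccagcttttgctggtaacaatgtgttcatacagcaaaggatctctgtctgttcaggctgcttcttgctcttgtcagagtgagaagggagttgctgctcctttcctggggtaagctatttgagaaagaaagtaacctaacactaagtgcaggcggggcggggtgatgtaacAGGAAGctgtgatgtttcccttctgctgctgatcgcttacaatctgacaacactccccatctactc
Ramp1: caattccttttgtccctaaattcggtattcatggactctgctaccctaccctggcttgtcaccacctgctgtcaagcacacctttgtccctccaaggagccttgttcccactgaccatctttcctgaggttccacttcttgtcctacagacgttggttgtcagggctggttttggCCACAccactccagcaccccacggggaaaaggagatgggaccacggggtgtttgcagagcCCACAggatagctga

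In the Calcrl window neither RUNX core word was found on either strand, and 1 ETS word lay 66 bases before the start. In the Ramp1 window 2 RUNX core words were found, both on the opposite strand, with their first printed base 75 and 15 bases before the start. The longer RUNX words TGTGGT and TGCGGT, which contain the core words, were in neither window. Of all 32851 promoter windows of this length, 64.1% held a RUNX core word, 18.6% a longer RUNX word and 39.2% an ETS word. A match is only a run of letters, and its absence here says nothing of sites elsewhere. RefSeq windows were at hand for 4 of the 6 genes. In the Adm window 2 RUNX core words and in the Ramp3 window none were found.

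Calcrl, the receptor itself, was higher in labelled-KO cultures in 4 of 4 sets. Its log2 level was 9.64 and 9.34 in the labelled-KO cultures of clone 1 and 9.32 and 9.56 in those of clone 2 (replicates 1 and 2). In Control cultures it was 8.77 and 8.37 in clone 1 and 8.66 and 9.16 in clone 2. The lowest labelled-KO culture lay above the highest Control culture, so the groups did not overlap. Over all genes, 0.587% had groups that did not overlap with the labelled-KO cultures higher and 0.582% with them lower, and none of the other 5 genes had groups that did not overlap. The mean was 9.46 ± 0.16 in labelled-KO cultures and 8.74 ± 0.33 in Control cultures (SD, n = 4 each), which is 1.66-fold (log2 difference 0.73, SD of the 4 set differences 0.25).

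**Figure D1:**
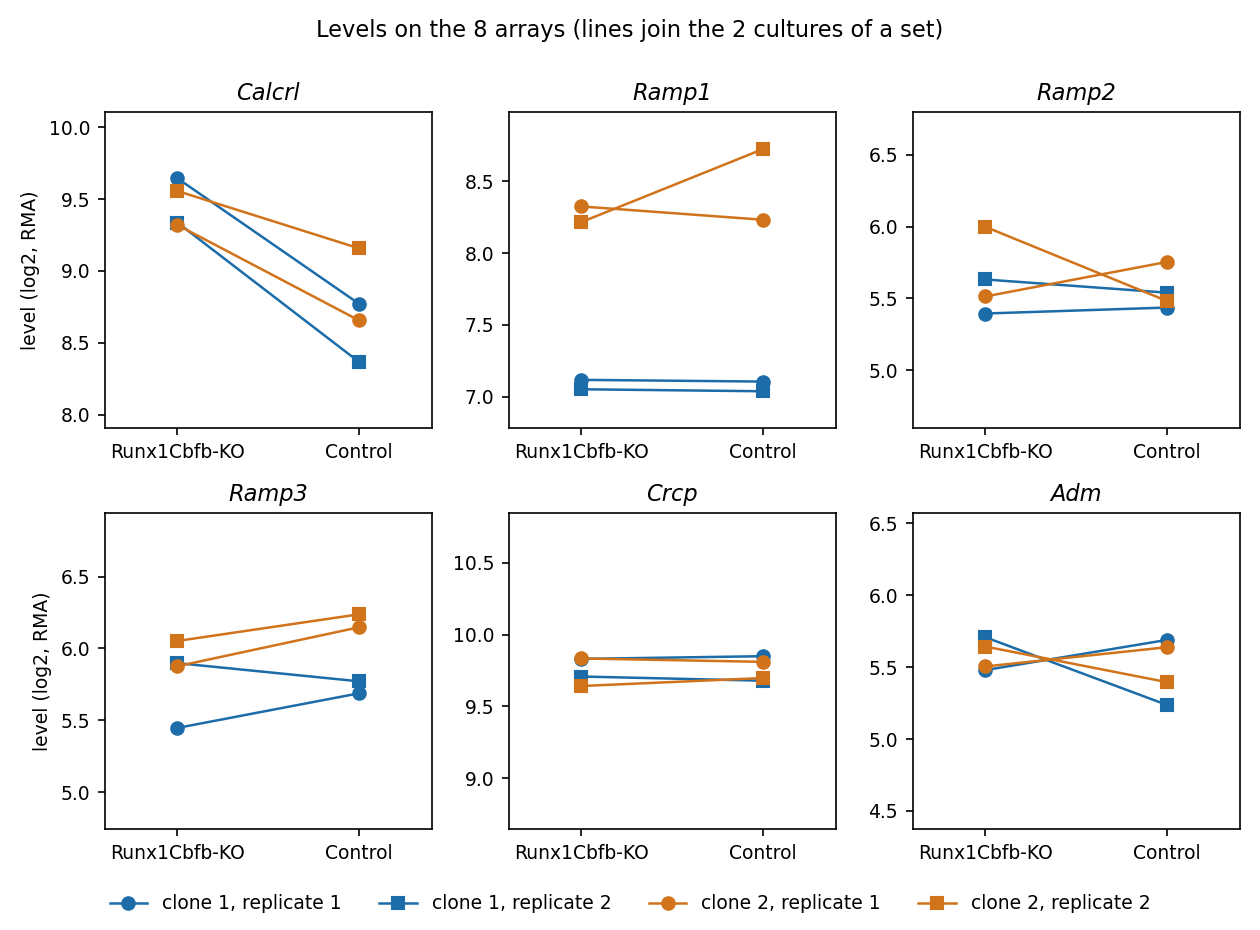
Log2 RMA level (vertical axis, each panel spanning the same height) of the 6 genes on the 8 arrays, with cultures labelled Runx1Cbfb-KO left of Control; lines join the 2 cultures of a set, colours mark clones and symbols mark replicates. Calcrl was higher in the labelled-KO culture of 4 of 4 sets, while Ramp1 was split by clone.

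The set differences of Calcrl were 0.87 and 0.97 in clone 1 and 0.66 and 0.40 in clone 2. The smallest belonged to the set of clone 2, replicate 2, whose Control culture had the highest Control level. Labelled-KO levels spanned 0.32 on the log2 scale and Control levels spanned 0.79. Among all 19938 genes the mean difference of Calcrl ranked 16th by size, which is what brought it to notice. It was also the 1 gene of the 6 called in the paired limma fit, against 0.953% of all genes called in either direction. Since that contrast chose Calcrl, nothing is read from the call.

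Ramp1 encodes the partner that makes the CGRP receptor. Its log2 level was 7.12 and 7.05 in the labelled-KO cultures of clone 1 and 8.32 and 8.22 in those of clone 2. In Control cultures it was 7.11 and 7.04 in clone 1 and 8.23 and 8.72 in clone 2. All 4 cultures of clone 2 lay above all 4 of clone 1, and within clone 1 the treated and untreated cultures differed by 0.01 in each set. The means were 7.68 ± 0.69 in labelled-KO cultures and 7.78 ± 0.84 in Control cultures (SD, n = 4 each), and the groups overlapped. The set differences were 0.01, 0.01, 0.09 and -0.51, the last in clone 2, replicate 2. Without that set, the mean difference was 0.04 in place of -0.10.

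Ramp2 and Ramp3 encode the partners that make adrenomedullin receptors. The log2 level of Ramp2 was 5.39, 5.63, 5.51 and 5.998 in labelled-KO cultures, against 5.44, 5.54, 5.75 and 5.48 in Control cultures (clone 1 replicates 1 and 2, then clone 2). The groups overlapped, with the highest value in the labelled-KO culture of clone 2, replicate 2, and set differences between -0.24 and 0.52. The array of that culture also had the highest median, 6.39. Ramp3 was at 5.45, 5.90, 5.88 and 6.05 in labelled-KO cultures, against 5.69, 5.77, 6.15 and 6.24 in Control cultures in the same order. It was lower in the labelled-KO culture of 3 of 4 sets, with a mean log2 difference of -0.14 and an SD of the set differences of 0.18, and its groups overlapped.

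**Figure D2:**
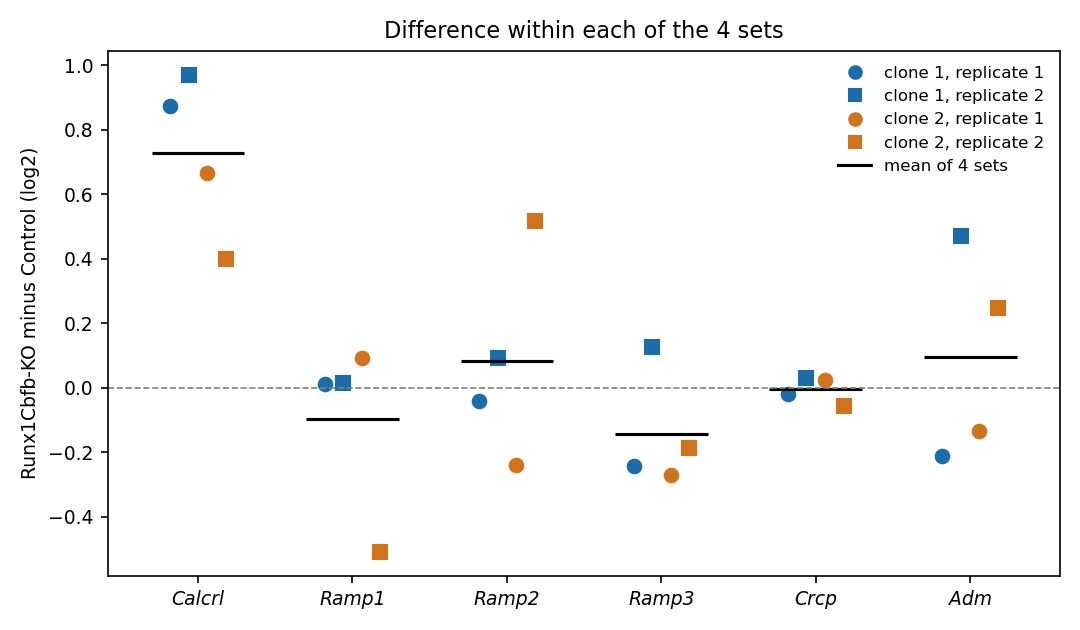
Log2 difference, Runx1Cbfb-KO minus Control (vertical axis), of the 6 genes (horizontal axis) in each of the 4 sets, with the mean of the sets as a black bar. The Calcrl points run from 0.40 to 0.97, while the points of every other gene shown lie on both sides of 0.

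Crcp encodes a small intracellular protein first described as a component of CGRP receptors, which is also a subunit of RNA polymerase III. It had log2 levels of 9.83, 9.71, 9.83 and 9.64 in labelled-KO cultures, against 9.85, 9.68, 9.81 and 9.70 in Control cultures in that order of sets. It varied least of the 6 genes, with set differences between -0.06 and 0.03 and a mean difference of -0.01 (SD of the set differences 0.04).

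Adm encodes the precursor of adrenomedullin, a peptide ligand of the receptor. Its log2 level was 5.48, 5.71, 5.50 and 5.64 in labelled-KO cultures, against 5.69, 5.24, 5.64 and 5.40 in Control cultures in the same order. The set differences were -0.21 and -0.13 in the sets of replicate number 1, and 0.47 and 0.25 in those of replicate number 2. Their sign followed the replicate number and not the clone. Ramp2 had the same split, at -0.04 and -0.24 in the sets of replicate number 1 and 0.09 and 0.52 in those of number 2. Calcrl averaged 0.77 in the sets of number 1 and 0.69 in those of number 2. The split was not particular to Adm and Ramp2. Among genes of the lists below, Casr had -0.15 and -0.21 in the sets of replicate number 1 and 0.23 and 0.45 in those of number 2. Col3a1 had -0.29 and -0.22, then 0.10 and 0.24. Other list genes, such as Calcb, did not have it. A difference between replicate numbers was not tested.

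How bright a probe set is depends on its probes as well as on the RNA, so levels are not compared between genes. As a description, the percentile among the 35556 probe sets of an array was 71.8 to 83.8 for Calcrl, 60.0 to 75.3 for Ramp1 and 84.0 to 85.6 for Crcp. It was 34.2 to 43.6 for Ramp2, 35.2 to 49.1 for Ramp3 and 31.7 to 40.2 for Adm, below the middle of the array throughout. The files give no detection call, so whether these 3 genes stood above background was not tested. In bulk cultures, a change in the share of cells that express a gene and a change in RNA per cell cannot be told apart.

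The clones were compared next, first within the labelled-KO cultures and then within the Control cultures, which does not use the contrast that chose Calcrl. Ramp1 was the 1 gene of the 6 that passed, and it did so in both. In labelled-KO cultures its mean log2 level was 8.27 in clone 2 and 7.09 in clone 1, a difference of 1.19 ± 0.15 (SE; 2.27-fold; limma adjusted p = 0.00120). In Control cultures the means were 8.48 in clone 2 and 7.07 in clone 1, a difference of 1.41 ± 0.15 (SE; 2.65-fold; limma adjusted p = 0.000414). Of all genes, 5.25% differed between clones in labelled-KO cultures and 3.97% in Control cultures, with 1.82% and 1.60% higher in clone 2. By size, the Ramp1 difference ranked 207th of 19938 in labelled-KO cultures and 141st in Control cultures.

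**Figure D3:**
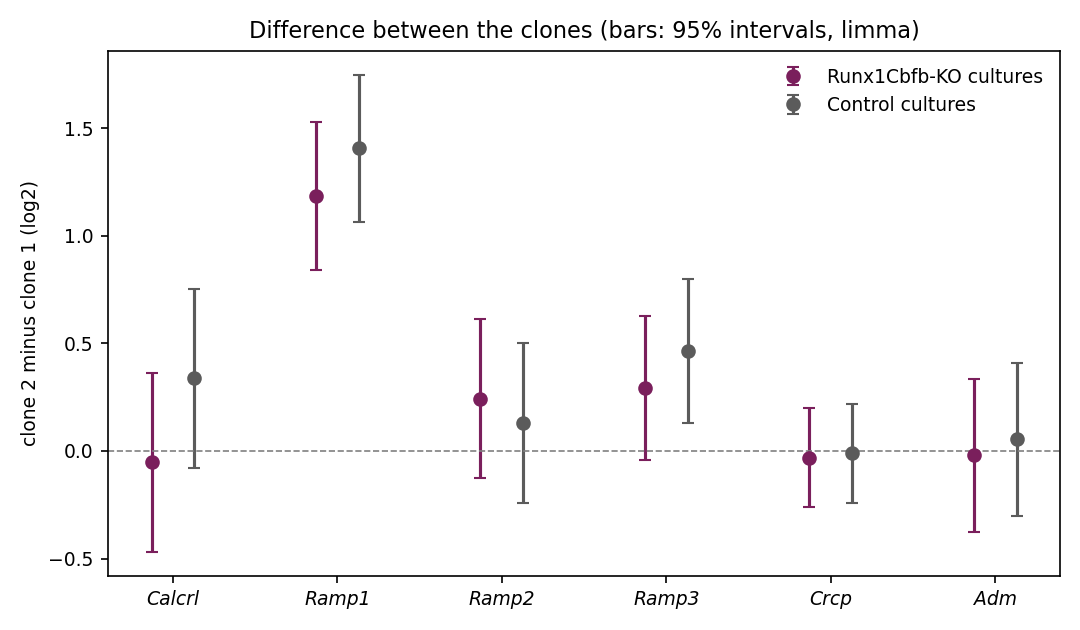
Log2 difference, clone 2 minus clone 1 (vertical axis), of the 6 genes in cultures labelled Runx1Cbfb-KO and in Control cultures, with 95% intervals from limma as bars. Ramp1 stands at 1.19 and 1.41, and the Ramp3 interval is above 0 in Control cultures without a call over all genes.

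The other 5 genes did not pass. For Ramp3 the clone difference was 0.29 in labelled-KO cultures (95% interval -0.04 to 0.63; limma adjusted p = 0.344) and 0.46 in Control cultures (0.13 to 0.80; limma adjusted p = 0.164). For Ramp2 the intervals ran from -0.13 to 0.61 in labelled-KO cultures and from -0.24 to 0.50 in Control cultures. Those of Crcp ran from -0.26 to 0.20 in labelled-KO cultures and from -0.24 to 0.22 in Control cultures, and those of Adm from -0.38 to 0.34 and from -0.30 to 0.41. Calcrl differed between clones by -0.05 in labelled-KO cultures (95% interval -0.47 to 0.36) and by 0.34 in Control cultures (-0.08 to 0.75), so neither direction was resolved.

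Markers of cell type also differed between the clones. In Control cultures 4 of 13 myeloid progenitor markers passed, 2 higher and 2 lower in clone 2, as did 3 of 12 endothelial markers, 1 higher and 2 lower, and 1 of 11 stromal markers, lower. The summed log2 level of the myeloid list was 139.3 to 141.4 in clone 2 and 133.9 to 136.4 in clone 1. Most of that gap came from 1 gene, Cd34, named after its value was seen, which was higher in clone 2 by 5.66 in labelled-KO cultures and 5.48 in Control cultures (log2). The other 12 myeloid markers differed between clones in both directions, by -0.70 to 0.70 in Control cultures. The sum of the endothelial list was 75.2 to 76.3 in clone 2 and 74.9 to 76.2 in clone 1, and that of the stromal list was 62.0 to 64.8 in clone 2 and 62.1 to 64.0 in clone 1. No marker can be at 0 on this scale. Their part in the Ramp1 difference was not tested.

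The rise of Calcrl was then compared between clones. The fitted effect was 0.53 ± 0.09 in clone 2 and 0.92 ± 0.09 in clone 1 (SE). The difference in effect was -0.39 ± 0.12 (SE; 95% interval -0.65 to -0.13) and did not pass over all genes (limma adjusted p = 1.00). Only 0.0100% of all genes passed this test, 2 in number. When clone 2, replicate 1 was left out, the Calcrl difference in effect was -0.52. When clone 2, replicate 2 was left out it was -0.26, and without either set of clone 1 it was -0.44 or -0.34. Each of these fits leaves 1 set in 1 clone, so only the size is given. In the fit of all 4 sets, none of the other 5 genes passed (limma adjusted p = 1.00 for each). Calcrl was the 1 gene of the 6 with an unadjusted p under 0.05, which 393 of all 19938 genes had. For Ramp1 the difference in effect was -0.22 (95% interval -0.63 to 0.19), with clone 2 at -0.21 ± 0.13 and clone 1 at 0.01 ± 0.13 (SE).

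Other genes of the pathway came from 13 lists, and of their 186 genes 177 were measured. In the paired limma fit 1 rose and 6 fell, against 0.481% and 0.471% of all genes, and 23 of the 177 had an unadjusted p under 0.05, against 1289 of all 19938 genes. All 7 calls ended with condition as the only term in the fit, without the variance trend and with all probe sets tested. Some held with terms for clone and replicate number in place of the pairing, among them Pdgfrb and Kit (limma adjusted p = 0.0157 and 0.0172). The median log2 difference over the lists was 0.00, as over all genes. No called gene was in the lists of ligands, other receptors, cAMP signalling or RNA polymerase III.

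Among genes of receptor desensitisation and sorting, 1 of 17 rose, none fell and 16 did not pass. It was Slc9a3r1, which encodes the scaffold NHERF1, known from work with human RAMP3 to bind the tail of that partner and to keep the receptor complex at the cell surface. Its set differences were 0.15 and 0.13 in clone 1 and 0.22 and 0.20 in clone 2. The mean level was 10.70 ± 0.03 in labelled-KO cultures and 10.53 ± 0.04 in Control cultures (log2, SD, n = 4 each), 1.13-fold (difference 0.17 ± 0.04, SE; limma adjusted p = 0.0447). The call ended when any 1 of 3 sets was left out, namely clone 1, replicate 1 (limma adjusted p = 0.0788), clone 1, replicate 2 (0.201) and clone 2, replicate 1 (0.297). It also ended without the pairing (1.00) and with median centring (0.694).

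Upstream of the receptor, the ligand and calcitonin receptor genes Calcb, Adm2, Iapp and Calcr did not pass, and Calcb had the smallest p (log2 difference -0.15 ± 0.08, SE; limma adjusted p = 0.891). None of the 4 had an unadjusted p under 0.05. Of 12 other receptors reported to bind RAMPs none passed and 1 had an unadjusted p under 0.05, the glucagon-like peptide receptor gene Glp1r (0.50 ± 0.15, SE; limma adjusted p = 0.253), with set differences from -0.01 to 1.27. Of 9 genes of ligand processing none passed, adjusted or not, with Pcsk1, a prohormone convertase, at -0.10 ± 0.07 (SE).

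Downstream of the receptor, none of 19 genes of Gs, adenylyl cyclase and PKA passed and 1 had an unadjusted p under 0.05, the G protein subunit gene Gng2 (log2 difference 0.21 ± 0.07, SE; limma adjusted p = 0.321). None of 16 cAMP phosphodiesterases passed and 3 had an unadjusted p under 0.05, with Pde3b at 0.17 ± 0.04 (SE; limma adjusted p = 0.0723). None of 11 CREB factors passed, adjusted or not, and Sik3, a kinase that restrains CREB coactivators, stood at 0.07 ± 0.05 (SE). Of 19 genes that cAMP induces through CREB none passed and 3 had an unadjusted p under 0.05. The clock gene Per2 had the smallest p, at -0.31 ± 0.07 (SE; limma adjusted p = 0.0611), negative in 4 of 4 sets.

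**Figure D4:**
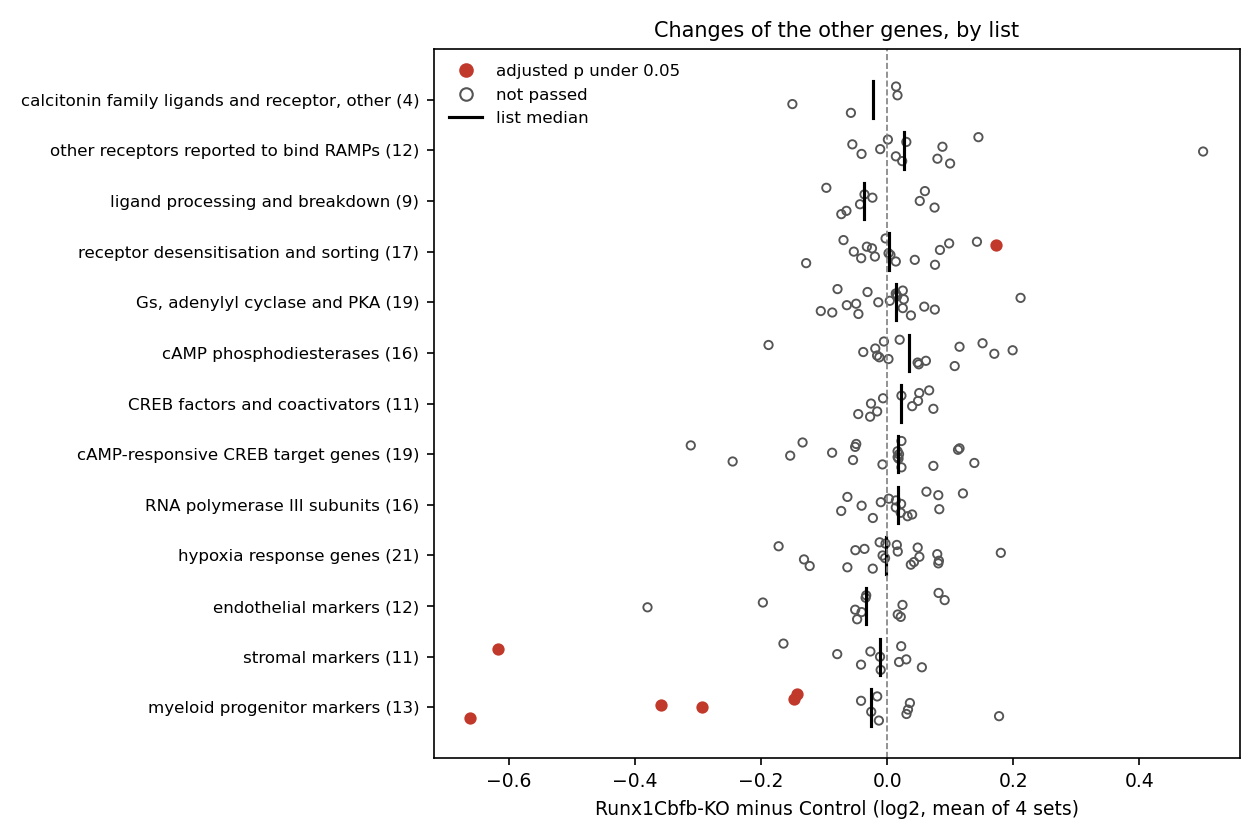
Log2 difference, Runx1Cbfb-KO minus Control, mean of 4 sets (horizontal axis), of each measured gene of 13 lists (rows, number of measured genes in brackets), with filled points at an adjusted p under 0.05 and a black bar at the list median. Of 177 measured genes, 1 filled point lies above 0 and 6 lie below.

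Around Crcp, none of 16 other RNA polymerase III subunits passed, adjusted or not, and Polr3gl was at 0.12 ± 0.07 (SE). Around Adm, which hypoxia induces, none of 21 hypoxia response genes passed and 3 had an unadjusted p under 0.05, with Hif1a at -0.13 ± 0.05 (SE; limma adjusted p = 0.448).

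Vessels express the receptor strongly, so endothelial and stromal markers were set beside Calcrl. None of 12 endothelial markers passed and 2 had an unadjusted p under 0.05, with Flt1, a receptor for vascular growth factor, at -0.38 ± 0.11 (SE; limma adjusted p = 0.190). Their summed log2 level was 74.9 to 75.9 in labelled-KO cultures and 75.3 to 76.3 in Control cultures. Of 11 stromal markers 1 fell, Pdgfrb (-0.62 ± 0.09, SE; limma adjusted p = 0.00469), and their sum was 62.0 to 64.8 in labelled-KO cultures and 63.3 to 64.6 in Control cultures. Of 13 myeloid progenitor markers 5 fell (limma adjusted p 0.00128 to 0.0465) and none rose. They were Cebpa (-0.66 ± 0.08, SE), Kit (-0.36 ± 0.05), Prtn3 (-0.15 ± 0.03), Itgam (-0.29 ± 0.06) and Spi1 (-0.14 ± 0.03), the last named after its value was seen. The calls of Prtn3, Itgam and Spi1 ended when clone 1, replicate 1 was left out (limma adjusted p 0.0877, 0.0863 and 0.111) or clone 1, replicate 2 (0.0603, 0.279 and 0.430), and with clone 1, replicate 2 left out that of Pdgfrb ended too (0.0603). The summed log2 level of the myeloid list was 133.9 to 140.3 in labelled-KO cultures and 135.2 to 141.4 in Control cultures. Both ranges span the 2 clones, whose Cd34 levels differed by 5.66 in labelled-KO and 5.48 in Control cultures. The part of the markers in the rise of Calcrl was not tested.

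Genes with a profile like that of Calcrl were found by distance. For each gene the mean over the 8 arrays was subtracted, and the root mean square difference from the Calcrl profile was taken over those arrays. The median gene was 0.44 away on the log2 scale, and the Calcrl profile itself was 0.43 from a flat line. The 6 nearest genes were Hdc (0.20), Slc18a1 (0.20), Sgsh (0.21), Mfsd6 (0.21), Gpr65 (0.23) and Klhl24 (0.24).

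Hdc makes histamine and Slc18a1 encodes a vesicle transporter for monoamines, and their mean log2 differences were 0.63 and 0.55. Sgsh, a lysosomal enzyme that breaks down heparan sulfate, was at 0.49, with set differences between 0.39 and 0.57. Mfsd6, of the major facilitator superfamily, was at 0.44 and Klhl24, of the kelch-like family, at 0.38. Gpr65, a proton-sensing receptor that also signals through Gs and cAMP, was at 0.38, with set differences between 0.27 and 0.56. All 6 had a positive difference in every set, and all 6 mean differences were smaller than the 0.73 of Calcrl. These genes were picked by their values on the same arrays, so the likeness is a description.

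**Figure D5:**
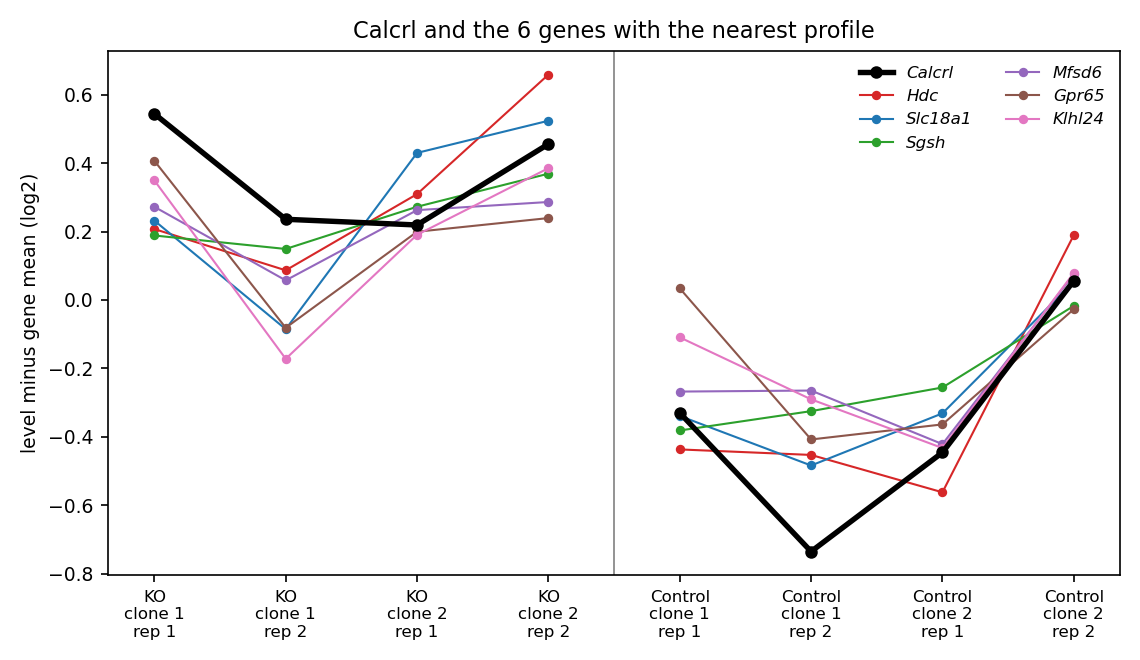
Log2 level minus the gene's mean over the 8 arrays (vertical axis) for Calcrl (thick line) and the 6 genes with the nearest profile, with the 4 cultures labelled Runx1Cbfb-KO left of the 4 Control cultures; lines only link points of 1 gene. The highest Control point of Calcrl and of 5 of the other 6 genes is that of clone 2, replicate 2.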

How the data were processed

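Each of 8 Affymetrix whole-transcript arrays was hybridised with cDNA from 1 culture. The deposited values are log2 probe-set levels made by the authors with RMA, per the submitters' processing notes. Values ran from 2.60 to 13.77, which set the base of the logarithm. Not given in the sources used here: the RMA version and the chip definition. Of 35556 probe sets, the platform annotation listed 23410, 21789 of them with 1 symbol, and the brightest per gene left 19938 genes. A further probe set shared by Ramp2 and Malat1 was not used.

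Fits used limma 3.58.1 in R 4.3.3 with a variance trend and two-sided tests. They were also run on simulated data with planted changes larger than those of the called list genes. Changes of the size of those calls were therefore not covered. P-values were adjusted by Benjamini-Hochberg across the 19938 genes, with 0.05 as the threshold. The paired fit had the set as a block, matched by clone and replicate number in the titles, with 3 residual degrees of freedom. Arrays of a set deviated together from their group means (r between 0.72 and 0.82). Those group means span both clones, so clone differences raise r. The size of r therefore cannot show whether cultures of the same replicate number belong together. In 4 of 4 sets the Control array correlated best with the labelled-KO array of its own set, ahead of the other of the same clone. Whether that exceeds chance was not tested. Clone contrasts used 4 cells of clone by condition without the block, and the difference in effect used the block. SEs are moderated, and the number of arrays limits the precision. P-values measure the spread between these cultures of 2 clones.

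The 6 genes, the lists and the alternatives were chosen with earlier results of these data known. Named from each list were up to 4 called genes with the smallest p, or else the 1 gene with the smallest p.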

Additional observations from a re-analysis of the deposited data

Results flagged for a closer look

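The difference of Ramp1 between labelled-KO and Control cultures stood apart in 1 of 4 sets. The set of clone 2, replicate 2 was at -0.51, while the other 3 lay between 0.01 and 0.09, and the gap to the nearest was 0.866 of the whole range, above Dixon's 95% critical value for 4 values. It was 1 of 18 groups of 4 values examined over the 6 genes, and chance alone marks about 1 in 20. The Control culture of that set also had the highest Ramp1 level, 8.72, and the highest Control level of Calcrl, 9.16.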

How the results depend on the processing

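Since all 4 set differences of Calcrl were positive, leaving out sets could not reverse the sign of its rise. Under 10 alternatives that rise was 0.65 to 0.84. The clone difference of Ramp1 stayed past the threshold under 12 of 12, at 1.13 to 1.24 in labelled-KO cultures (limma adjusted p 0.000648 to 0.0200) and 1.16 to 1.65 in Control cultures (6.66e-05 to 0.0110). For Ramp3 in Control cultures the adjusted p ran from 0.0238, with array weights, to 0.529. Counts of called genes moved more. In the paired comparison, 190 genes passed, against 0 with no replicate block (317 unadjusted), 23 with a clone term alone, 78 with terms for clone and number, 13 without the variance trend, 388 with array weights, 0 with all 35556 probe sets (1834 unadjusted), 98 to 418 without 1 set (98 without clone 1, replicate 2, 110 without clone 2, replicate 1, 418 without clone 2, replicate 2), and 620 and 443 in separate fits of replicate numbers 1 and 2. For the difference in effect between clones, 2 genes passed, against 0 with no replicate block (178 unadjusted), 0 without the trend (304 unadjusted), 4 with array weights, 12 with centring, 0 with all probe sets (776 unadjusted) and 5 to 224 without 1 set (5 and 13 without clone 1, replicates 1 and 2, 224 and 40 without those of clone 2). Between clones, 1047 genes passed in labelled-KO cultures, against 567 with array weights, 599 with all probe sets and 382 to 1542 without 1 set (382 without clone 1, replicate 1, 548 without clone 2, replicate 2). In Control cultures 792 passed, against 1599, 477 and 385 to 588 (385 and 469 without clone 1, replicates 1 and 2, 475 without clone 2, replicate 2). With condition as the only term, none of the 7 called list genes passed (limma adjusted p 1.00). With terms for clone and replicate number in place of the block, Cebpa, Pdgfrb (0.0157) and Kit (0.0172) still passed. Slc9a3r1 (0.172), Prtn3 (0.651) and Itgam (0.914) then did not. None of the 7 passed without the variance trend (0.0747 for Cebpa, 0.0756 for Pdgfrb, 0.115 for Kit, up to 0.721 for Prtn3) or with all probe sets (0.207 to 0.416). Median centring ended the calls of Slc9a3r1 (0.694), Prtn3 (0.150), Itgam (0.105) and Spi1 (0.332). Causes were not tested. A lone culture left in a cell was assumed to vary like the others.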
